A study of Mus musculus with 18 samples.

Results

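The enzymes and regulators of de novo lipogenesis are described here as a set of 10 genes, Acly, Acaca, Acacb, Fasn, Scd1, Scd2, Me1, Srebf1, Mlxipl and Thrsp, of 19937 genes measured with exactly 1 gene symbol. They were taken by symbol from a list, and each gene is given by its brightest probe set, the one with the highest mean intensity over all arrays. All 10 were measured, and 2 of them, Acaca and Me1, had a further probe set. Adipose tissue of male C57BL/6J mice aged 10 weeks and fed chow was hybridised to Affymetrix arrays, 1 sample per array and 18 arrays in all. Brown adipose tissue (BAT) came from 5 mice that overexpress human FXR specifically in adipose tissue (FXR BAT) and from 5 wild-type mice (control BAT), and white adipose tissue (WAT) from 4 such FXR mice (FXR WAT) and 4 wild-type mice (control WAT). FXR, the farnesoid X receptor, is a nuclear receptor for bile acids. The labels name neither the promoter of the transgene nor the WAT depot, and do not tie BAT samples to WAT samples of one mouse. For control BAT 2 and 4 the extract text also mentions 6 weeks of feeding. Samples of a group are described as biological replicates, and a p-value here reflects only how far such samples spread.

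De novo lipogenesis builds fatty acids from surplus carbohydrate. Citrate leaves the mitochondria and is split into acetyl-CoA, which is carboxylated to malonyl-CoA and joined into palmitate with NADPH as the reductant, and the product is then elongated and desaturated. Insulin drives the pathway mainly through the transcription factor SREBP-1c and glucose through ChREBP, and brown fat is known for a high lipogenic capacity alongside the burning of fatty acids.

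Levels are given as log2(intensity + 1) and differences in log2 units, FXR minus control unless stated. The median deposited intensity of an array was 93.1 to 99.9 for BAT but 60.5 to 61.7 for WAT, which means that levels in the tissues do not share a distribution. Across genes, arrays of a group correlated with each other at 0.973 to 0.995. The tissue labels were checked with markers: the mean level of Ucp1, the uncoupling protein of brown fat, was 12.77 in FXR BAT, 13.25 in control BAT, 5.87 in FXR WAT and 5.80 in control WAT. Adipoq, which encodes adiponectin and marks all mature adipocytes, was 11.50 in FXR BAT, 11.70 in control BAT, 10.37 in FXR WAT and 10.61 in control WAT. The dim end of an array, taken as its 1% quantile and called the floor here, had an intensity of 49.7 to 52.3 for BAT and 44.9 to 46.8 for WAT. The dimmest lipogenic gene was Mlxipl, at 2.15 times the floor in FXR WAT and 2.35 times in control WAT, where array differences can be compressed.

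Promoters of 8 of the 10 genes were matched by symbol in RefSeq (mouse build GRCm38.p6), as windows from 250 bases before to 50 bases after an annotated start. Scd1 and Scd2 had none in the table used. The windows of 4 genes are shown. Acacb and Srebf1 were the members that changed with the FXR genotype in BAT. Fasn and Thrsp were among those that varied together from array to array, but Acaca and Acly followed the shared pattern more closely. Pearson's r over 18 arrays was 0.93 for Acaca and 0.92 for Acly, against 0.84 for Fasn and 0.83 for Thrsp. Srebf1 had 3 windows, of which the one farthest upstream is shown. Capitals mark the CCAAT box, a short motif bound by the factor NF-Y, on either strand (as CCAAT or ATTGG).
Acacb, chr5:114165268-114165567, plus strand: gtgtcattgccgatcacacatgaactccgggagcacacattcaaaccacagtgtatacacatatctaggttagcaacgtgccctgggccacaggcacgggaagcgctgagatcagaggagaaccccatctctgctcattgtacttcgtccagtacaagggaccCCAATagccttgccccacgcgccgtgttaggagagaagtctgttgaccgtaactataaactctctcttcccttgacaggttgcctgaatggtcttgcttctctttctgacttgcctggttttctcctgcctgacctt
Srebf1, chr11:60222532-60222831, minus strand: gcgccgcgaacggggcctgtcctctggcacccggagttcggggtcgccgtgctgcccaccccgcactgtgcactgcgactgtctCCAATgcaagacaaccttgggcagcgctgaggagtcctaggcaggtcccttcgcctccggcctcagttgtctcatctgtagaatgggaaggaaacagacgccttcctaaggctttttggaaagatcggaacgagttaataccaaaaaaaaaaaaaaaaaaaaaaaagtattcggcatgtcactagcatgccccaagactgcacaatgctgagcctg
Fasn, chr11:120824498-120824797, minus strand: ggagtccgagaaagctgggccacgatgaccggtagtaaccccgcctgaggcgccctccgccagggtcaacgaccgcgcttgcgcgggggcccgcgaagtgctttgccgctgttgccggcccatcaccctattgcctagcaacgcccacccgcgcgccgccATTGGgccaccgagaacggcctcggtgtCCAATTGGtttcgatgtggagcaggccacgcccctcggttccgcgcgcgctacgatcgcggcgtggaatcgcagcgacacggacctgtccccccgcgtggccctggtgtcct
Thrsp, chr7:97417501-97417800, minus strand: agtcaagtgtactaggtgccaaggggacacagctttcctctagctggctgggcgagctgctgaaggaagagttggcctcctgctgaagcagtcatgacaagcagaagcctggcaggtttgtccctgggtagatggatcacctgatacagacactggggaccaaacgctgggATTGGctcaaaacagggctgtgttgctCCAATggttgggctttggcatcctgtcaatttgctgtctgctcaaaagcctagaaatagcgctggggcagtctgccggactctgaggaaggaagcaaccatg
The window of Fasn held 3 CCAAT boxes, the first bases of which lay at -90, -62 and -59 from the start, the last 2 overlapping each other, and the window of Thrsp held 2, at -79 and -52. The window of Acaca, not shown, held 0 CCAAT boxes. That of Acly, also not shown, held 1, at 38, after the start. A link between the box and the shared pattern was not tested. A CCAAT box stood in 8 of the 12 windows of the 8 genes, against 37.4% of all 32851 promoter windows. By gene it stood in 7 of 8 (Acly, Acacb, Fasn, Me1, Srebf1, Mlxipl and Thrsp), against 41.1% of all 27025 genes. A gene with several windows has more places for a match. Further motifs were searched on both strands. The E-box CACGTG, the core that ChREBP and SREBP-1 can bind, stood in 1 window, of Mlxipl (7.15% of all windows), and the SREBP site TCACNCCAC in another window of Mlxipl (1.24% of all windows). The inverted repeat AGGTCANTGACCT, the strict form of an FXR site, stood in 0 of the 12 windows (0.00913% of all windows), which says only that these letters are not there.

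**Figure D1:**
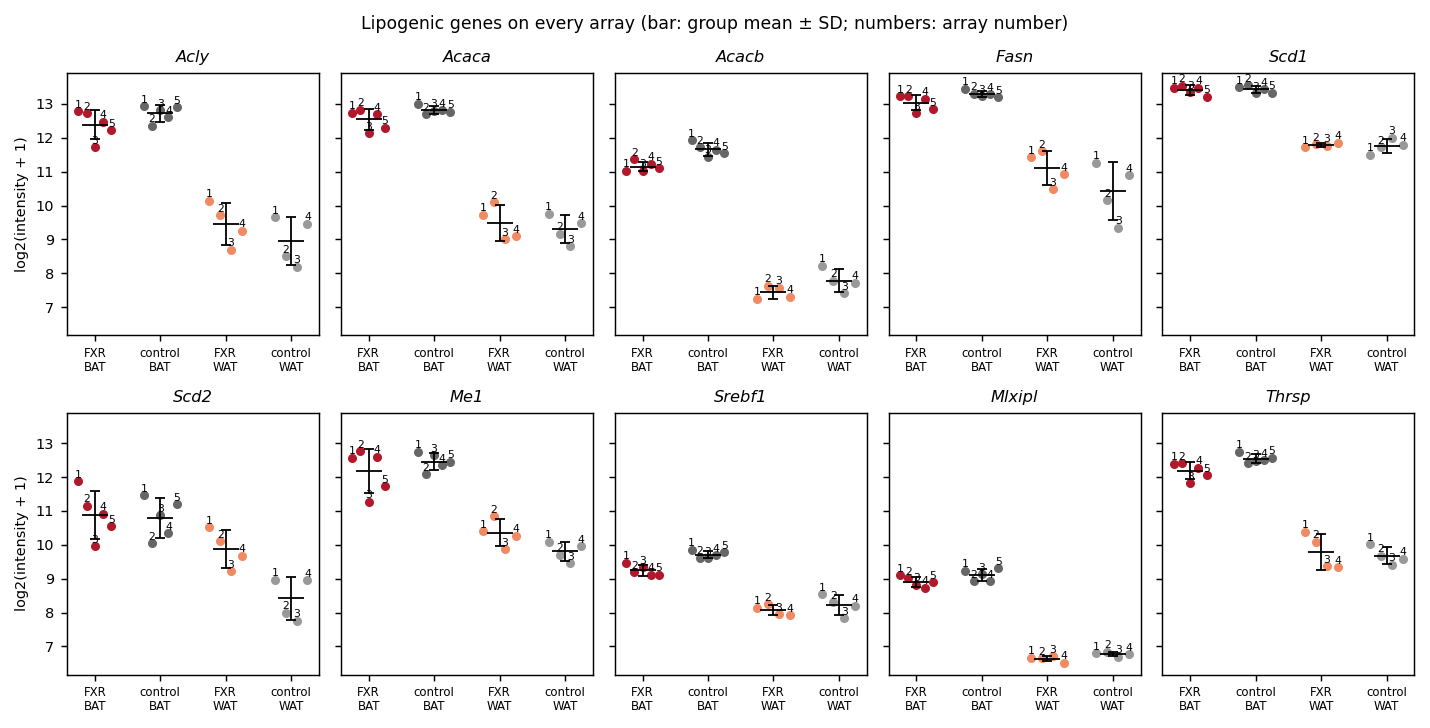
Level of each lipogenic gene, as log2(intensity + 1), on each of the 18 arrays in FXR BAT, control BAT, FXR WAT and control WAT; black bars are group means with SD and digits are array numbers. The Acacb and Srebf1 arrays of FXR BAT all lie below those of control BAT, and the Scd2 arrays of FXR WAT all lie above those of control WAT.

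In BAT, 2 of the 10 lipogenic genes fell in FXR mice, Acacb to 0.703 and Srebf1 to 0.727 of the control level, none rose, and 8 did not pass the test. Of all 19937 genes, 15.7% were called, 8.72% as falling and 7% as rising, by the same rule (limma's moderated test, adjusted p below 0.05 after Benjamini-Hochberg over all genes). With dim genes left out, 3 of the 10 were called. There 12.1% of all genes kept were called as falling and 9.31% as rising. Of the 10 differences, 9 were below 0, with a median of -0.27 over the 10 genes, against 0.01 over all genes. With 1 array left out, the median of the 10 genes ran from -0.37 (without FXR BAT 2) to -0.17 (without FXR BAT 3). After quantile normalization of all 18 arrays it was -0.11. Most of these genes varied together from array to array, so the 9 signs are not independent. Arrays of the genotypes did not overlap, with FXR lower, for Acacb and Srebf1 alone, 2 of 10 genes, against 6.28% of all genes, and for none with FXR higher, against 5.88%.

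Srebf1 encodes SREBP-1, the transcription factor that raises lipogenic enzymes under insulin. Its level was 9.48, 9.20, 9.33, 9.12 and 9.11 on FXR BAT 1 to 5, against 9.86, 9.62, 9.60, 9.69 and 9.78 on control BAT 1 to 5. Every FXR array lay below every control array. The difference was -0.46 ± 0.08 (SE, n = 5 and 5, adjusted p = 0.00226, limma). Mlxipl encodes ChREBP, the glucose-responsive factor, and its level was 9.10, 9.02, 8.82, 8.73 and 8.89 in FXR BAT against 9.24, 8.93, 9.13, 8.92 and 9.32 in control BAT. These groups overlapped, and the difference of -0.19 ± 0.09 did not pass (adjusted p = 0.195, limma). Thrsp encodes Spot 14, a small protein that promotes lipogenesis and responds to thyroid hormone and carbohydrate. Thrsp was 12.40, 12.41, 11.81, 12.28 and 12.06 in FXR BAT, against 12.75, 12.41, 12.47, 12.50 and 12.57 in control BAT. Its FXR arrays reached up to the lowest control array, and the difference of -0.35 ± 0.11 missed the threshold (adjusted p = 0.0572, limma). Thrsp passed without FXR BAT 1 (adjusted p = 0.0450, limma) or FXR BAT 2 (adjusted p = 0.0388), with dim genes left out (adjusted p = 0.0457), with arrays centred on their medians (adjusted p = 0.0344) and with the floor subtracted (adjusted p = 0.0490), and over all 21 alternatives its adjusted p ran from 0.00625 to 0.429.

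Acacb and Acaca encode the acetyl-CoA carboxylases that make malonyl-CoA. The product of Acacb lies at the mitochondrial outer membrane, where malonyl-CoA restrains the entry of fatty acids for oxidation, and that of Acaca supplies fatty acid synthesis in the cytosol. Acacb was 11.03, 11.36, 11.03, 11.24 and 11.10 on FXR BAT 1 to 5, against 11.94, 11.73, 11.45, 11.65 and 11.54 on control BAT 1 to 5. The groups did not overlap, and the difference was -0.51 ± 0.09 (SE, adjusted p = 0.00423, limma). Acaca was 12.75, 12.83, 12.14, 12.70 and 12.30 in FXR BAT, against 13.01, 12.70, 12.80, 12.81 and 12.78 in control BAT. FXR BAT 3 and 5 lay below all controls while FXR BAT 2 lay above 4 of them, and the difference of -0.27 ± 0.12 did not pass (adjusted p = 0.179, limma) and was -0.17 without FXR BAT 3. The further Acaca probe set differed by -0.34 ± 0.13 and did not pass either.

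Acly encodes ATP citrate lyase, which splits cytosolic citrate into acetyl-CoA. It was 12.78, 12.73, 11.73, 12.48 and 12.23 in FXR BAT, against 12.93, 12.36, 12.82, 12.61 and 12.91 in control BAT, and the difference of -0.33 ± 0.19 did not pass (adjusted p = 0.290, limma). Me1 encodes cytosolic malic enzyme, a source of NADPH. It was 12.58, 12.77, 11.28, 12.61 and 11.73 in FXR BAT, against 12.75, 12.08, 12.65, 12.35 and 12.46 in control BAT. FXR BAT 3 and 5 were below all controls and the other FXR arrays were among or above them. The Me1 difference was -0.27 ± 0.27 (adjusted p = 0.594, limma) and only -0.04 without FXR BAT 3, and that of Acly was -0.17 without that array. Fasn, the fatty acid synthase that assembles palmitate, was 13.22, 13.23, 12.73, 13.16 and 12.85 in FXR BAT, against 13.45, 13.30, 13.24, 13.29 and 13.21 in control BAT. The lowest control was just below the 2 highest FXR arrays, and the difference of -0.26 ± 0.10 did not pass (adjusted p = 0.107, limma).

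Scd1 and Scd2 encode stearoyl-CoA desaturases, which place the double bond that turns saturated into monounsaturated fatty acids. Scd1 was 13.48, 13.54, 13.34, 13.49 and 13.21 in FXR BAT, against 13.49, 13.56, 13.32, 13.44 and 13.33 in control BAT. The difference was -0.02 ± 0.07, with a 95% interval of -0.17 to 0.13 (adjusted p = 0.919, limma). Scd1 was at the very top of the scale, with 0.00502% of genes brighter in either BAT group. Its mean intensity was 10938 in FXR BAT and 11050 in control BAT, where the maximum of a BAT array was 11469 to 15980. Differences and spread may be compressed so near the maximum, which was not tested. Scd2 spread far more: it was 11.87, 11.16, 9.97, 10.92 and 10.55 in FXR BAT, against 11.47, 10.05, 10.88, 10.34 and 11.19 in control BAT. Its difference was 0.11 ± 0.35, with a 95% interval of -0.67 to 0.88 (adjusted p = 0.897, limma).

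**Figure D2:**
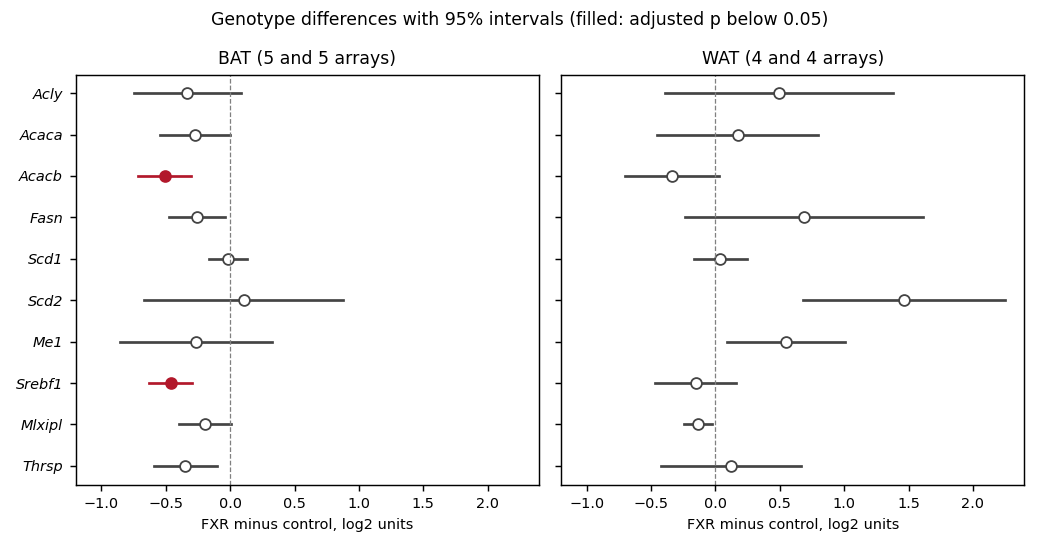
Difference between FXR and control for each lipogenic gene in BAT (left) and WAT (right), in log2 units, with the 95% interval of limma; filled points have an adjusted p below 0.05. Acacb (-0.51) and Srebf1 (-0.46) in BAT are the filled points, and Scd2 in WAT (1.47) is the farthest from 0.

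Signals of other cells differed between the BAT arrays. The summed intensity of 15 skeletal muscle genes was 34216, 24084, 2425, 34550 and 7606 on FXR BAT 1 to 5, against 4910, 4458, 10593, 2653 and 2188 on control BAT 1 to 5, and 2 of the 15 genes rose. FXR BAT 1, 2 and 4 thus carried more muscle signal than any control array, and FXR BAT 3 and 5 did not. The summed intensity of the 10 lipogenic genes was 53480, 54147, 35369, 49465 and 39144 on FXR BAT 1 to 5, against 60809, 49513, 52386, 51420 and 52999 on control BAT 1 to 5. The lipogenic sums of the muscle-rich FXR arrays lay among or close to the controls, and those of FXR BAT 3 and 5, whose muscle sums were within the control range, were the lowest of the 10. With FXR BAT 1, 2 and 4 left out, 7 of the 10 genes were lower in FXR BAT (Acly, Acaca, Acacb, Fasn, Me1, Srebf1 and Thrsp), with -0.95 ± 0.18 for Me1 and -0.51 ± 0.07 for Fasn. That fit rests on 2 FXR arrays, and in it 4.98% of all genes were called lower. Those 2 arrays had the lowest lipogenic sums of the 10, so their choice largely set the count in advance. The count therefore says nothing on the part of muscle signal. Without FXR BAT 1, 2 and 4, Acacb (-0.59) and Srebf1 (-0.49) differed about as much as over all arrays. All 10 macrophage genes rose (summed intensity 2799 to 3545 in FXR BAT, 1381 to 1962 in control BAT), as did all 9 measured fibroblast and progenitor genes (11441 to 13595 in FXR BAT, 4451 to 7024 in control BAT). Among 10 genes of mature adipocytes 8 fell, and the other 2 missed the threshold (32519 to 36431 in FXR BAT, 37401 to 44477 in control BAT), and of 10 brown adipocyte genes 8 fell and 1 rose. The part of these cell type signals in the lipogenic differences was not tested, and fewer cells of a type and less RNA per cell cannot be told apart in whole tissue.

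**Figure D3:**
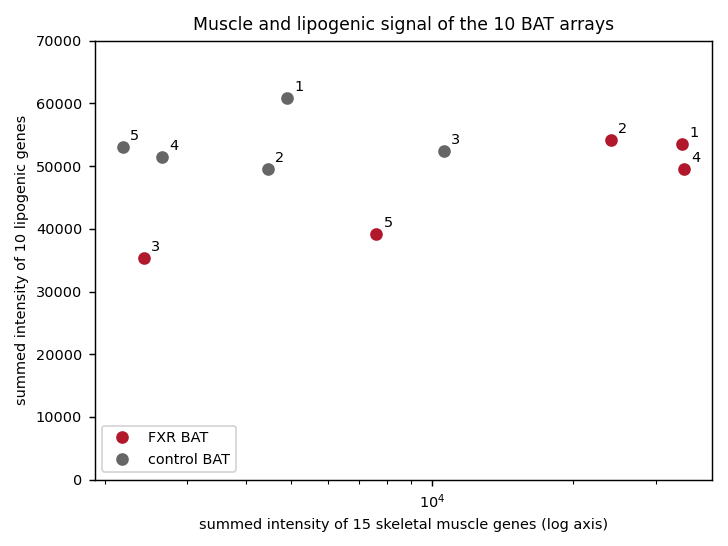
Summed intensity of the 10 lipogenic genes (vertical axis, from 0) against that of 15 skeletal muscle genes (horizontal log axis) on the 10 BAT arrays, with array numbers. FXR BAT 3 and 5 have the lowest lipogenic sums, 35369 and 39144, and muscle sums within the control range, while FXR BAT 1, 2 and 4 have muscle sums of 24084 or more.

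In WAT, none of the 10 lipogenic genes passed the test between FXR and control (limma, 0 of 10 called), where 1.32% of all genes were called. Of the differences, 7 were above 0 and 3 below, with a median of 0.15 over the 10 genes, against 0.001 over all genes. The largest difference was that of Scd2, the desaturase gene whose mean level was 2.76-fold as high in FXR WAT. Scd2 was 10.53, 10.10, 9.23 and 9.68 on FXR WAT 1 to 4, against 8.97, 8.00, 7.76 and 8.96 on control WAT 1 to 4. The lowest FXR array was above the highest control array, a separation with FXR higher that 4.31% of all genes had. No lipogenic gene was separated with FXR lower, against 3.47% of all genes. The difference was 1.47 ± 0.35 (SE, n = 4 and 4, 95% interval 0.68 to 2.25, adjusted p = 0.0922, limma), and it passed with dim genes left out, where fewer genes were tested (adjusted p = 0.0487). Over all 17 alternatives the difference ran from 1.25 to 1.68 and its adjusted p from 0.0385 to 0.253.

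Scd1, the other desaturase, was 11.72, 11.81, 11.77 and 11.86 in FXR WAT, against 11.50, 11.72, 12.00 and 11.80 in control WAT. The difference of 0.04 ± 0.09 had a 95% interval of -0.17 to 0.25 (adjusted p = 0.923, limma). Me1 was 10.40, 10.85, 9.88 and 10.28 in FXR WAT, against 10.09, 9.71, 9.46 and 9.96 in control WAT, a difference of 0.55 ± 0.20 that did not pass (adjusted p = 0.291, limma). Its further probe set ordered the arrays otherwise. It gave 10.09, 8.43, 7.82 and 8.00 in FXR WAT, against 7.29, 7.80, 9.18 and 7.66 in control WAT, so that control WAT 3 was the lowest array by the brighter probe set and the second highest by the other. Fasn spanned more than 1 log2 unit within each WAT group. It was 11.42, 11.61, 10.49 and 10.92 in FXR WAT, against 11.27, 10.16, 9.34 and 10.90 in control WAT, and the difference of 0.69 ± 0.41 (adjusted p = 0.565, limma) was 0.33 without control WAT 3. Acly was 10.14, 9.72, 8.69 and 9.25 in FXR WAT, against 9.66, 8.50, 8.19 and 9.47 in control WAT (0.50 ± 0.39, adjusted p = 0.698, limma). With 1 array left out the Acly difference ran from 0.24 (without control WAT 3) to 0.75 (without FXR WAT 3), and it was 0.27 without FXR WAT 1.

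The carboxylase gene Acaca was 9.73, 10.10, 9.00 and 9.09 in FXR WAT, against 9.76, 9.17, 8.81 and 9.49 in control WAT (0.17 ± 0.28). Acacb was 7.25, 7.64, 7.58 and 7.31 in FXR WAT, against 8.23, 7.78, 7.40 and 7.72 in control WAT, and its difference of -0.34 ± 0.16 did not pass (adjusted p = 0.448, limma). These groups overlapped through control WAT 3, and the difference was -0.19 without control WAT 1. Among the regulators, Srebf1 was 8.15, 8.25, 7.96 and 7.93 in FXR WAT, against 8.55, 8.30, 7.83 and 8.21 in control WAT (-0.15 ± 0.14, adjusted p = 0.748, limma), a difference of -0.04 without control WAT 1 and -0.28 without control WAT 3. Mlxipl was 6.66, 6.66, 6.72 and 6.52 in FXR WAT, against 6.79, 6.84, 6.69 and 6.77 in control WAT (-0.13 ± 0.05, adjusted p = 0.285). Thrsp was 10.39, 10.09, 9.37 and 9.34 in FXR WAT, against 10.01, 9.68, 9.41 and 9.59 in control WAT (0.12 ± 0.24, adjusted p = 0.903). FXR WAT 1 and 2 were above, and FXR WAT 3 and 4 below, every control array of Thrsp. Muscle genes were near the floor in WAT: 12 of 15 were within 1.5 times the floor in FXR WAT and 11 of 15 in control WAT. The summed intensity of 4 epididymis genes reached 663 on FXR WAT 1, while the other FXR arrays had 207 to 244 and control WAT had 206 to 228. The part of this signal in the WAT differences was not tested. Without FXR WAT 1, Scd2 still differed by 1.25 ± 0.34.

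The difference between both genotype changes (WAT change minus BAT change) was tested over all 18 arrays. No lipogenic gene passed (limma, 0 of 10 called), against 6.47% of all genes called, 4.43% as higher and 2.03% as lower. A different FXR change in the tissues was thus not shown for any of them. All 10 estimates were above 0, with a median of 0.46 over the 10 genes, against -0.01 over all genes. The largest were Scd2 with 1.36 ± 0.54 (adjusted p = 0.156, limma), Fasn with 0.95 ± 0.41 (adjusted p = 0.203), Acly with 0.83 ± 0.44 (adjusted p = 0.319) and Me1 with 0.81 ± 0.38 (adjusted p = 0.238). For Acacb, the gene with the largest fall in BAT, the difference was 0.17 ± 0.19 (adjusted p = 0.706), with a 95% interval of -0.23 to 0.57. With 1 array left out it ran from 0.04 (without control WAT 3) to 0.32 (without control WAT 1), and it was 0.10 without control BAT 1 and 0.11 without FXR WAT 2. The Fasn value was 0.59 without control WAT 3. Without the muscle-rich FXR BAT 1, 2 and 4, Scd2 (2.00) and Me1 (1.5) passed, in a fit where 3.99% of all genes were called higher. The FXR BAT arrays kept there were again those with the lowest lipogenic sums, which largely set this outcome in advance.

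Most lipogenic genes also varied together from array to array within a group. Among the 10 BAT arrays of both genotypes, FXR BAT 3 was the lowest for 6 genes (Acly, Acaca, Fasn, Scd2, Me1 and Thrsp) and among the lowest 2 for 8 of 10. Within its group FXR BAT 3 was the lowest for 6 of 10. Control BAT 1 was the highest of the BAT arrays for 6 of 10, and within its group for 8 of 10. Among the 8 WAT arrays, control WAT 3 was the lowest for 6 genes (Acly, Acaca, Fasn, Scd2, Me1 and Srebf1), and within its group for 9 of 10. The exception was Scd1, which was highest there. The further probe set of Me1 was also the highest of its group on control WAT 3 (9.18). The counts and correlations of Me1 thus rest on its brighter probe set.

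Each array's deviation from its group mean was set against the mean deviation of the other 9 genes, over 18 arrays and as a description, since the genes share arrays, RNA and normalization. Pearson's r was 0.93 for Acaca, 0.92 for Acly, 0.86 for Scd2, 0.84 for Fasn, 0.83 for Thrsp and 0.82 for Me1. It was 0.67 for Srebf1, 0.44 for Acacb, 0.41 for Mlxipl and -0.23 for Scd1. For Scd1 this pooled value joined opposite ones, 0.45 over the 10 BAT arrays and -0.70 over the 8 WAT arrays. Srebf1 had 0.34 over the BAT arrays and 0.85 over the WAT arrays, Acacb 0.35 and 0.50, and Mlxipl 0.60 and 0.25, in the same order. The other 6 genes had 0.87 to 0.98 in BAT and 0.78 to 0.96 in WAT. Spearman's rho was 0.94 for Acaca, 0.90 for Acly and -0.11 for Scd1. Without the 2 arrays farthest from the median, the 6 closest genes kept r between 0.81 and 0.91 and Acacb had 0.26. The 2 genes called in FXR BAT, Acacb and Srebf1, were among the 3 that followed the shared pattern least closely within BAT, the third being Scd1. The paralogs differed in the size of their spread: the deviations of Scd2 had an SD of 0.63 log2 units and those of Scd1 one of 0.13. Scd1 lay near the maximum of the BAT arrays, where its spread may be compressed.

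**Figure D4:**
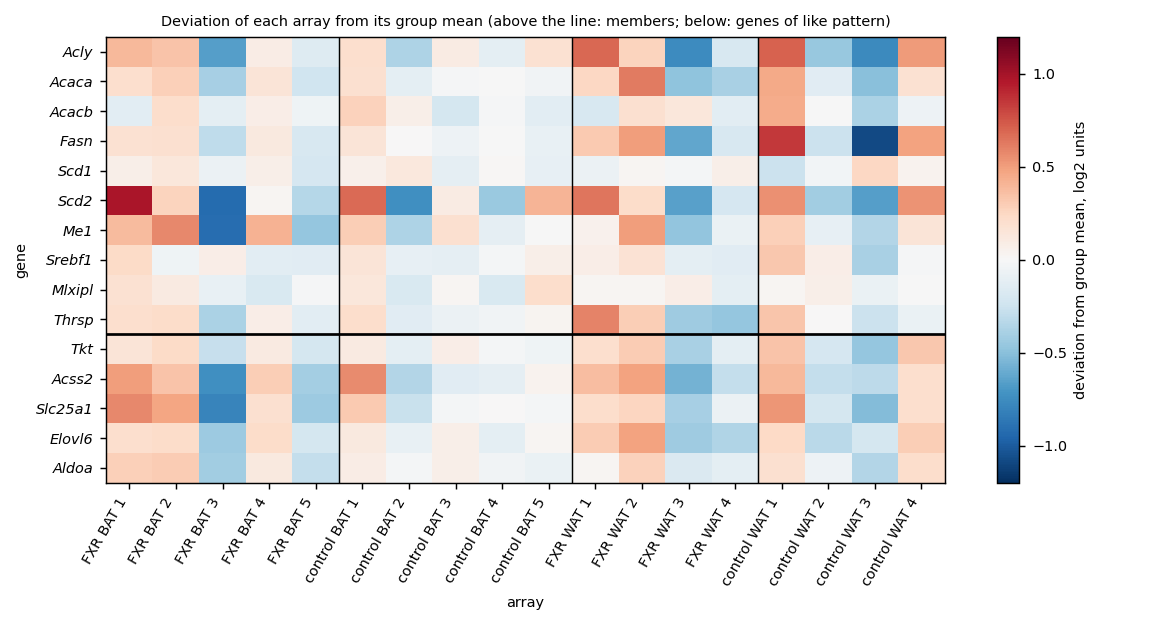
Deviation of each array from its group mean, in log2 units (colour), for the 10 lipogenic genes and, below the line, the 5 other genes of most similar pattern; arrays run from FXR BAT to control WAT. FXR BAT 3 and control WAT 3 are low for most genes and Scd1 hardly varies.

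Among 753 other genes that varied by at least 0.2 log2 units and were at least 2 times brighter than the floor, 5 followed the mean deviation of the lipogenic genes most closely. They were Tkt (r = 0.95 over 18 arrays), a transketolase of the pentose phosphate pathway, Acss2 (0.94), a cytosolic acetyl-CoA synthetase, Slc25a1 (0.94), the mitochondrial citrate carrier, Elovl6 (0.90), an elongase of saturated fatty acids, and Aldoa (0.90), a glycolytic aldolase. Within the 10 BAT arrays alone r was 0.93 for Tkt, 0.98 for Acss2, 0.97 for Slc25a1, 0.93 for Elovl6 and 0.90 for Aldoa, and within the 8 WAT arrays it was 0.98, 0.95, 0.98, 0.89 and 0.93 for the same genes. Slc25a1, for example, was 11.99, 11.89, 10.62, 11.61 and 10.98 in FXR BAT, against 12.14, 11.57, 11.81, 11.84 and 11.81 in control BAT, and again FXR BAT 3 and 5 were the lowest.

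Genes around lipogenesis were counted by list in the same test. With dim genes left out, the shares of all genes called in BAT were higher, 12.1% as falling and 9.31% as rising. In BAT, where 8.72% of all genes fell and 7% rose, 6 of 11 genes for citrate and acetyl-CoA supply fell, 0 rose and 5 did not pass, with a median difference of -0.34. Among those that fell were Dlat (-0.41) and Dld (-0.35), subunits of pyruvate dehydrogenase, and Cs, citrate synthase (-0.27). Of 7 genes for NADPH supply, 1 fell, the cytosolic isocitrate dehydrogenase gene Idh1 (-0.25), and 6 did not pass. Of 8 genes for the processing and induction of SREBP-1, 3 fell and 5 did not pass. Nr1h3, which encodes the oxysterol receptor LXR alpha that induces Srebf1, fell by 0.59 ± 0.08 log2 units (adjusted p = 6.63e-04, limma). Insig2, which retains SREBP in the endoplasmic reticulum, differed by -0.19 and Scap, its escort to the Golgi, by -0.18.

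Of 8 partners and targets of ChREBP, 3 fell and 5 did not pass in BAT. Mlx, the obligate partner of ChREBP, fell by 0.51 ± 0.07 (adjusted p = 5.04e-04, limma), the glycerol phosphate dehydrogenase gene Gpd1 differed by -0.45 and the insulin-regulated glucose transporter gene Slc2a4 by -0.50. Of 9 genes that control acetyl-CoA carboxylase, 4 fell, 1 rose and 4 did not pass. Those that fell included the AMP-activated kinase genes Prkaa1 (-0.52) and Prkab1 (-0.46), whose kinase inhibits the carboxylases, and its upstream kinase gene Stk11 (-0.30), and Prkab2, another subunit gene, rose (0.22). Of 11 genes for elongation, desaturation and activation of fatty acids, 3 fell and 8 did not pass: the acyl-CoA synthetase gene Acsl5 (-1.32), Hsd17b12 (-0.51), a reductase of elongation, and Elovl6 (-0.52). Of 8 genes for glucose use, 2 fell and 6 did not pass, Hk2, a hexokinase (-0.90), and Pfkl, a phosphofructokinase subunit (-0.58). The macrophage and fibroblast signals given above rose in FXR BAT too, and the muscle signal exceeded all controls only on FXR BAT 1, 2 and 4. Of the adipocyte markers, 8 of 10 mature adipocyte genes fell, and of 10 brown adipocyte genes 8 fell and 1 rose. The part of these signals in the list differences was not tested.

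In WAT, 0 of the 62 genes on these 7 lists were called (limma), against 1.32% of all genes. The list medians lay between 0.003 for the control of acetyl-CoA carboxylase and 0.23 for glucose use, against 0.001 over all genes. Elovl6 was 8.07, 8.25, 7.33 and 7.41 in FXR WAT, against 7.10, 6.53, 6.64 and 7.15 in control WAT. The lowest FXR array was above the highest control array, and the difference of 0.91 ± 0.23 did not pass (adjusted p = 0.117, limma). In the test of the difference between both genotype changes, 14 of the 62 genes were called, all with the higher change in WAT, against 4.43% of all genes. With dim genes left out, the share of all genes called higher was 7.45%. The 14 included Elovl6 with 1.43 ± 0.27 (adjusted p = 0.00410, limma), Mlx with 0.53 ± 0.09 (adjusted p = 0.00273) and Nr1h3 with 0.49 ± 0.11 (adjusted p = 0.0116). These are examples, named by no rule. Mlx stood only 2.36 times above the floor in FXR WAT and 2.30 times in control WAT, and Elovl6 4.90 times in FXR WAT and 2.54 times in control WAT. At such levels WAT differences can be compressed, and the part of this in the test was not tested.

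**Figure D5:**
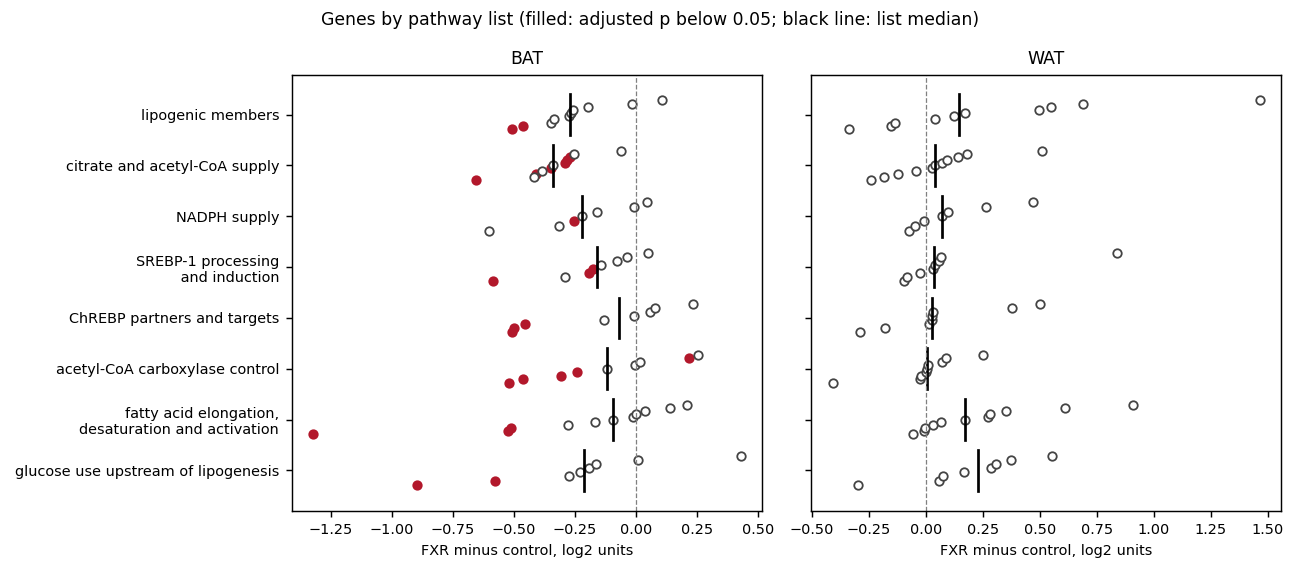
Difference between FXR and control, in log2 units, for the genes of each list in BAT (left) and WAT (right); filled points have an adjusted p below 0.05 and black lines are list medians. Filled points in BAT lie below 0 except Prkab2, and in WAT there are none.

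Between tissues, all 10 lipogenic genes were brighter in control BAT than in control WAT, and their arrays did not overlap. By the same rule 94.8% of all genes were higher in control BAT, and 92.5% were separated that way, so the count says nothing particular about them. The differences (control BAT minus control WAT) ran from 1.49 ± 0.12 for Srebf1 to 3.88 ± 0.15 for Acacb, with a median of 2.76, against 0.59 over all genes. Between FXR BAT and FXR WAT they ran from 1.01 ± 0.37 for Scd2 to 3.71 ± 0.10 for Acacb, with a median of 2.10 against 0.63 over all genes. All 10 passed, where 95.1% of all genes did so with BAT higher, and 9 were separated, against 92.5% of all genes. The call of Scd2 (adjusted p = 0.0234, limma) ended without FXR WAT 3 (0.79, adjusted p = 0.0740), without FXR WAT 4 (0.94, adjusted p = 0.0569), with arrays centred on their medians (0.33) and without FXR BAT 1, 2 and 4 (0.37). After quantile normalization of all 18 arrays, which moved the median over all genes to -0.04 for control BAT minus control WAT, the median of the 10 genes was 1.14 and 8 passed. Scd2 (0.81) and Srebf1 (-0.03) did not. In that fit 23.7% of all genes were called higher in control BAT and 34.3% lower. For FXR BAT minus FXR WAT the quantile-normalized median of the 10 genes was 0.83, against -0.05 over all genes. There 7 passed, where 21.4% of all genes were called higher in FXR BAT and 34% lower. Me1 (0.41), Scd2 (-0.42) and Srebf1 (-0.16) did not pass after quantile normalization. Ranks within the tissue do not depend on such scaling. In FXR BAT 0.938% of genes were brighter than Acacb and in control BAT 0.722%, against 11.2% in FXR WAT and 7.14% in control WAT. For Srebf1 the shares were 6.26% in FXR BAT and 4.60% in control BAT, against 5.57% in FXR WAT and 4.46% in control WAT, so its rank was close between the tissues.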

How the data were processed

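The values were read as deposited by the authors: 1 intensity per probe set and array on a linear scale, with biotin-labelled cDNA prepared from 500 ng of total RNA, per the labels' protocols. The background correction, summary and normalization that the authors applied, and the genome build, are not given in the sources used here. Of 34760 probe sets, 21640 had exactly 1 symbol in the platform annotation, 1321 several and 11799 none listed. The brightest probe set per gene was kept, which left 19937 genes, with no filter. No 2 arrays held identical values. The number of arrays limits the precision.

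Two-sided tests of log2(intensity + 1) used limma 3.58.1 (lmFit, eBayes; R 4.3.3), with Benjamini-Hochberg adjustment over all genes and a threshold of 0.05. Genotypes were compared over 10 BAT and over 8 WAT arrays, tissues within genotype over 9 arrays each, and both changes over 18 arrays. The same code was tested on simulated data. Figures were drawn with matplotlib 3.10.9.

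The genes, lists and other settings were chosen with earlier results of these data known. By rule, the text names all 10 genes, up to 3 called genes per list and direction with the smallest adjusted p, and the 5 genes of most similar pattern. The rule on lists covered the genotype comparisons within BAT and within WAT. For the difference between both genotype changes, Elovl6, Mlx and Nr1h3 were named outside it. Elovl6 in WAT, Adipoq and Ucp1 were named after their values were seen. Protein sequences were not used here. Other settings were quantile normalization, median centring, 2 other transforms, a filter on dim genes, averaged probe sets, array weights, a replicate block, 1 fit of all arrays, and arrays left out.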

Additional observations from a re-analysis of the deposited data

How the results depend on the processing

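Srebf1 and Acacb kept their calls in BAT under all 21 alternatives. Acacb ran from -0.59 to -0.33 (adjusted p 0.00297 to 0.0459, limma) and Srebf1 from -0.52 to -0.33 (adjusted p 0.000838 to 0.0263). Over the 1040 recomputed values of single genes, 998 kept direction and call, 15 gained a call, 6 lost one and 21 changed sign. With 1 array left out, the number of genes called was always 2 or 3 of 10 in BAT, 0 in WAT and 0 for the difference between tissues. In these fits 2198 to 3683 of all 19937 genes were called in BAT and 49 to 335 in WAT. For the difference between tissues it was 901 to 1688. With so few calls over all genes, 0 of 10 in WAT says little. Without FXR BAT 1, 2 and 4 the number of lipogenic genes called was 7 in BAT, where 4.98% of all genes were called lower. For the difference between tissues it was then 2, where 3.99% of all genes were called higher. The FXR BAT arrays kept in these fits were those with the lowest lipogenic sums. In WAT the number called was 1 with dim genes left out (2.44% of all genes called higher) and 1 with a replicate block (0.677%), Scd2 each time. Nothing in the labels ties samples of the same title number, and the main tests did not take the numbers as pairs. The replicate block does group arrays by number, so its calls rest on a grouping that the labels do not give. Deviations of arrays with the same number correlated at -0.49 to 0.28 between genotypes, where an array matched its own number best in 3 of 9 cases. Between tissues they correlated at -0.08 to 0.26, 7 of 8 above 0, and matched best in 6 of 8 cases, a hint from the data and not the design. With the replicate block, 3 genes were called in BAT (Fasn, adjusted p = 0.0460, limma, was added), where 8.01% of all genes were called lower and 5.72% higher. Scd2 passed in WAT (1.47, adjusted p = 0.0385, limma). For the difference between tissues 0 passed, against 4.41% of all genes called higher and 2.17% lower. All 10 passed between tissues in both genotypes, as did 94.7% of all genes in controls and 94.8% in FXR mice, with BAT higher.

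Sign changes concerned mostly Scd1 and Scd2. With quantile normalization of all arrays, Scd1 was 0.0891 in BAT and -0.0934 in WAT, and the difference between both changes was -0.0757 for Acacb, -0.18 for Scd1 and -0.10 for Mlxipl. Quantile normalization also gave -0.0349 for Srebf1 between tissues in controls, and -0.42 for Scd2 and -0.16 for Srebf1 in FXR mice. Without control BAT 2 and 4, Scd1 was 0.0304 and Scd2 -0.29 in BAT, and without FXR BAT 1, 2 and 4 Scd2 was -0.53. With 1 array left out, Scd1 ran from -0.0497 to 0.0336 and Scd2 from -0.14 to 0.337 in BAT. In WAT, Acaca ran from -0.0360 (without FXR WAT 2) to 0.331, Scd1 from -0.0463 (without control WAT 1) to 0.121 and Thrsp from -0.0747 (without FXR WAT 1) to 0.277. For the difference between both changes, Scd1 ran from -0.0296 (without control WAT 1) to 0.138. Counts over all genes ran from 2198 to 3683 in BAT and from 49 to 335 in WAT with 1 array left out, and from 1411 to 3895 and from 192 to 413 under the other settings. The cause of these shifts was not tested. Some of the fits held fewer arrays or genes. Signal over background limits Mlxipl in WAT most.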
